A study of Arabidopsis thaliana with 8 samples.

Results

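The trehalose phosphate synthase (TPS) family of Arabidopsis thaliana was followed in seedlings mutant in both VOZ genes. The family was taken as 8 loci, TPS1 (AT1G78580) and the class II genes TPS5 (AT4G17770), TPS6 (AT1G68020), TPS7 (AT1G06410), TPS8 (AT1G70290), TPS9 (AT1G23870), TPS10 (AT1G60140) and TPS11 (AT2G18700). Members were matched by locus name to the array's probes, and all 8 were among the 24599 features tested. A feature was a named locus or a probe without a locus name, and features are called loci below. Before filtering, the array held 25665 named loci beside the probes without a locus name. The family itself was picked on earlier results of the same genotype contrast, with TPS5 set as the sugar-induced member against TPS8 to TPS11 as starvation-induced members. The genotype differences of the 8 genes are therefore a description of these arrays and support nothing beyond them.

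One group was wild type of the Col-0 accession and the other was the voz1 voz2 double mutant, with 4 replicates each. VOZ1 and VOZ2 are a pair of plant transcription factors with zinc finger and NAC-like domains, known for promoting flowering downstream of phytochrome B. The labels name neither the mutant alleles nor how many plants made up a sample. All seedlings had been grown for 14 days at 22 °C on MS agar, half-strength in the sample labels, in days of 16 h of light and 8 h of dark, and received no treatment. RNA came from whole seedlings, so root and shoot were measured together, and fewer cells of a type cannot be told apart from less RNA per cell. No source used here gives the hour of harvest.

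TPS1 makes trehalose 6-phosphate from UDP-glucose and glucose 6-phosphate. Trehalose 6-phosphate phosphatases (TPPs) convert it to trehalose, which trehalase splits into glucose. In plants trehalose 6-phosphate follows the sucrose level and restrains SnRK1, the kinase that switches cells to a starvation programme, and TPS1 is needed for embryo growth and timely flowering. The class II proteins carry a synthase-like and a phosphatase-like domain with little catalytic activity shown for them. Their transcripts respond to carbon supply: TPS5 rises with sugar, whereas TPS8 to TPS11 rise when carbon runs short and fall again when sugar is supplied.

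Each array gave a Cy3 signal per probe, and levels below are log2 signals with the array's own 75th percentile set to 0. A level can be compared between arrays for 1 gene, but not between genes, since probes differ in brightness. On each array 60.4% to 70.3% of probes were well above background, and no spot was saturated. The brightest probe of each TPS gene was well above background on all 8 arrays, with processed signals from 1210 to 18877. The number of arrays limits the precision. Both disrupted genes were low in the mutant, VOZ1 with a log2 fold change of -1.50 (limma, adjusted p = 0.0015) and VOZ2 with -5.74 (adjusted p = 1.0e-04). The signal of each was still well above background on all 4 mutant arrays. The 8 arrays lay on 2 slides, with 2 of each genotype on each slide, replicates 1 and 3 on slide 1 and replicates 2 and 4 on slide 2.

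A pair of arrays stood apart in measures that touch the family. Wild type replicate 4 had the lowest mean level of 12 root markers, -2.08 against -0.74 to -0.11 in the other wild type arrays, and the highest leaf marker mean, 3.56 against 3.03 to 3.11. The voz1 voz2 replicate 4 had a mean level of 16 carbon starvation markers of 2.51, against -0.20 to 0.48 in the other mutant arrays and 2.21 to 3.75 in wild type. Values without these arrays are given for several measures below.

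In voz1 voz2 seedlings TPS5 was 3.29-fold higher than in wild type and TPS11 was 3.07-fold lower, and these were the members past an adjusted p of 0.05. TPS8, TPS9 and TPS10 had lower means by 1.71-fold, 2.43-fold and 1.48-fold without passing. Thus 1 of 8 members was higher and 1 of 8 lower past the threshold, in a comparison that called 4.44% of all 24599 tested loci, 2.72% higher and 1.72% lower. Of the 8 fold changes 7 were below 0, counting TPS1 by its brightest probe, although a dim TPS1 probe moved the opposite way. The median of the 8 was -0.54 on the log2 scale against -0.030 for all tested loci. The rule used this contrast, so nothing is read from these shares. The 4 arrays of each genotype did not overlap for 1 member that was higher (TPS5) and 4 that were lower (TPS7, TPS8, TPS9 and TPS11), against 8.48% and 7.81% of the 24353 loci with a value on all 8 arrays.

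**Figure D1:**
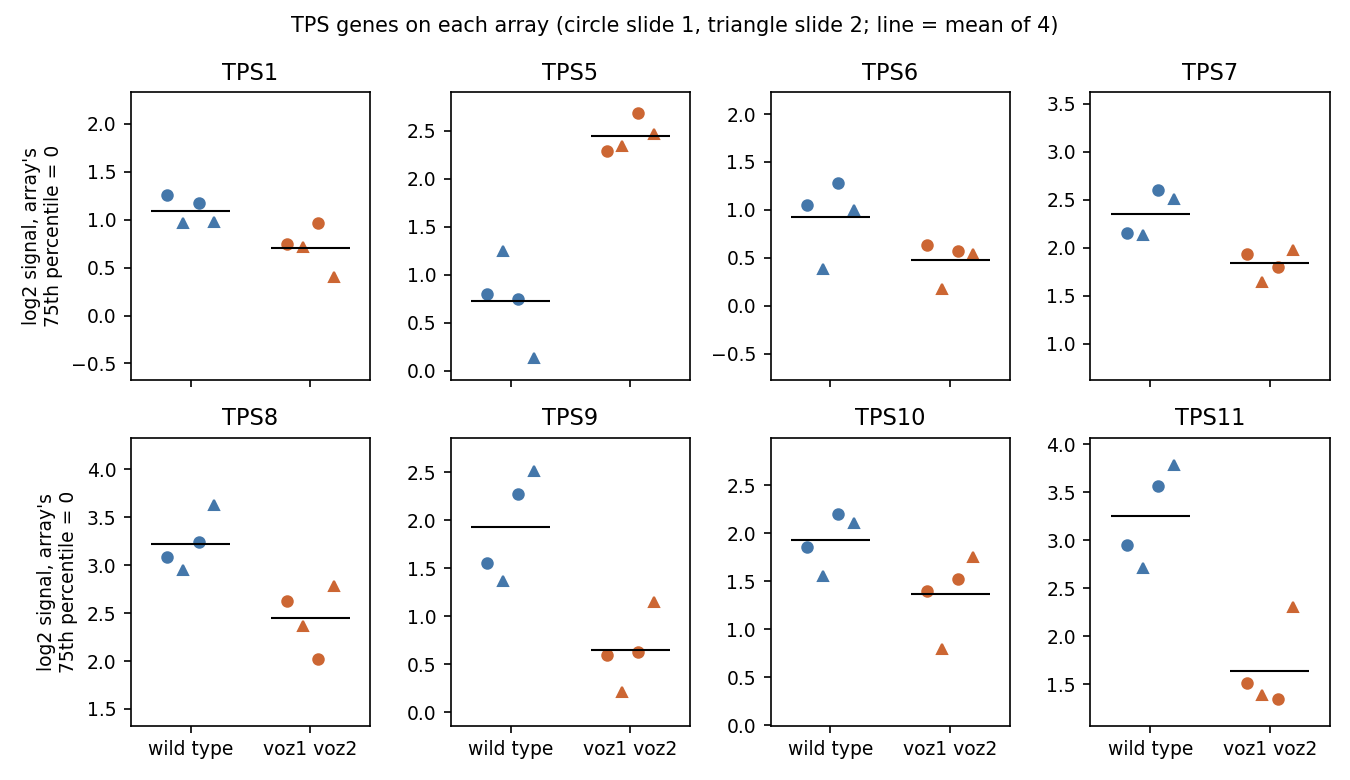
Level of each TPS gene (log2 signal with the array's 75th percentile set to 0) on the 4 wild type arrays (blue) and the 4 voz1 voz2 arrays (orange); circles are slide 1, triangles slide 2, lines the mean of 4, and every panel spans 3 log2 units. All mutant arrays lie above wild type for TPS5 and below it for TPS7, TPS8, TPS9 and TPS11, whereas TPS1, TPS6 and TPS10 overlap.

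TPS5, the sugar-induced class II gene, had levels of 0.80, 1.24, 0.74 and 0.13 in wild type replicates 1 to 4. In voz1 voz2 replicates 1 to 4 the levels were 2.30, 2.35, 2.68 and 2.47. The mutant arrays were all above the wild type arrays and close to one another, and most of the spread lay in wild type, where replicate 4 was lowest. The means were 0.73 ± 0.46 and 2.45 ± 0.17 (SD, n = 4 each), a log2 fold change of 1.72 ± 0.23 (SE; 95% interval 1.18 to 2.26; limma, adjusted p = 0.0083). Of all tested loci, 2.48% had a larger change in size. The TPS5 difference was the same on both slides, 1.72 on slide 1 and 1.72 on slide 2, and it passed with any single array left out (adjusted p from 0.0082 to 0.030).

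TPS11, a starvation-induced gene that sugar represses, had wild type levels of 2.95, 2.71, 3.56 and 3.78. The mutant levels were 1.51, 1.38, 1.35 and 2.30. The genotypes did not overlap, 3 mutant arrays lay close together, and replicate 4 was the highest of the mutant arrays. The means were 3.25 ± 0.50 and 1.64 ± 0.45 (SD, n = 4 each), and the log2 fold change was -1.62 ± 0.31 (SE; 95% interval -2.32 to -0.92; limma, adjusted p = 0.028). A larger change in size was seen for 2.85% of tested loci. TPS11 still passed when wild type replicate 2 (adjusted p = 0.024) or voz1 voz2 replicate 4 (log2 fold change -1.84, adjusted p = 0.023) was dropped. Dropping any of the other 6 arrays lost the call (adjusted p from 0.054 to 0.084).

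TPS9, a close relative in the starvation-induced group, had wild type levels of 1.56, 1.37, 2.27 and 2.51 and mutant levels of 0.59, 0.21, 0.63 and 1.15. The arrays of the genotypes did not overlap. The log2 fold change was -1.28 ± 0.30 (SE; 95% interval -1.98 to -0.58), and the limma adjusted p of 0.054 missed the threshold. Leaving out wild type replicate 2, the lowest of its group, gave -1.47 and an adjusted p of 0.038.

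TPS8, also starvation-induced, had wild type levels of 3.08, 2.95, 3.24 and 3.63 and mutant levels of 2.63, 2.36, 2.02 and 2.78. The mutant arrays were again all below wild type, by less than for TPS9 and TPS11, with a log2 fold change of -0.77 ± 0.22 (SE; limma, adjusted p = 0.081). TPS10, the remaining gene of the group, had wild type levels of 1.86, 1.56, 2.20 and 2.1 and mutant levels of 1.40, 0.79, 1.53 and 1.75. Here the highest mutant array exceeded the lowest wild type array, and the log2 fold change was -0.56 ± 0.24 (SE; limma, adjusted p = 0.20).

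Arrays that carry the same replicate number in both genotypes deviated together (r from 0.32 to 0.61). Different numbers on 1 slide did so too (0.27 to 0.54), so a pairing beyond the slide is not established. The fit with the replicate number as a block is given beside these calls. In the replicate block fit TPS8, TPS9, TPS10 and TPS11 all passed as lower (limma, adjusted p = 0.040, 0.016, 0.041 and 0.016), and TPS5 passed as higher (0.021). That fit made 4 lower calls among the members, where 6.74% of all loci were called lower and 6.74% higher. With the slide as a block, TPS8, TPS9 and TPS11 passed as lower (adjusted p = 0.047, 0.040 and 0.023) and TPS5 as higher (0.0095), where 7.95% of loci were called lower and 8.13% higher. Within slide 1 and slide 2 the log2 fold changes were -1.30 and -1.26 for TPS9, -0.83 and -0.71 for TPS8, and -1.83 and -1.40 for TPS11. The difference between the slides passed for none of the 8 members (limma interaction, adjusted p = 0.9997 for each).

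**Figure D2:**
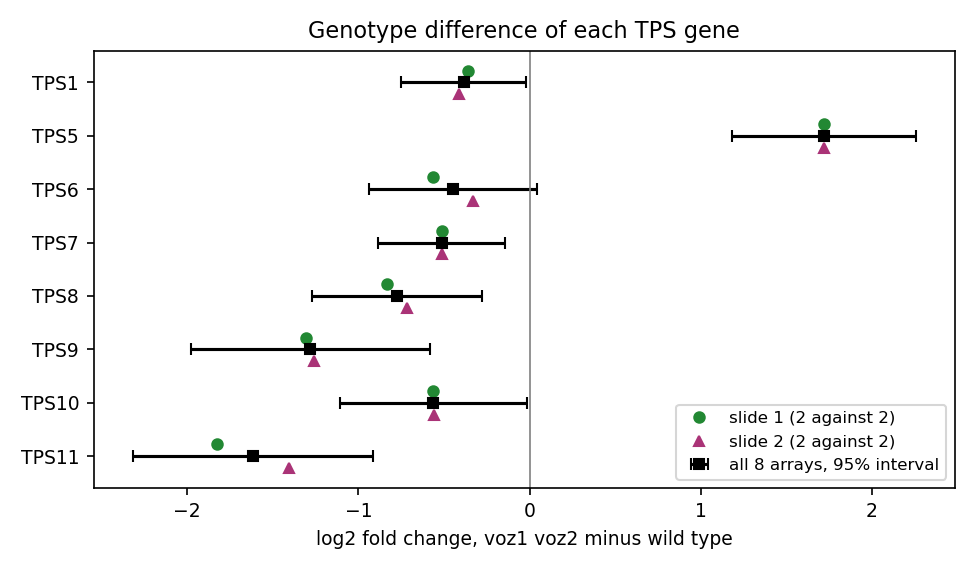
Log2 fold change of each TPS gene, voz1 voz2 minus wild type, with its 95% interval from limma on all 8 arrays (black squares), and the difference within slide 1 (circles) and within slide 2 (triangles), each from 2 arrays of each genotype. TPS5 is at 1.72 in all 3, the other members lie below 0 on both slides, and the interval of TPS6 reaches 0.04. TPS1 is shown by its brightest probe, and its dim probe moved the opposite way.

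Of the remaining class II genes, TPS7 had wild type levels of 2.16, 2.13, 2.60 and 2.51 and mutant levels of 1.94, 1.64, 1.80 and 1.98. These did not overlap, and the log2 fold change of -0.51 ± 0.16 (SE; limma, adjusted p = 0.11) did not pass. TPS6 had wild type levels of 1.06, 0.38, 1.28 and 1.0 and mutant levels of 0.64, 0.18, 0.57 and 0.54, which overlapped through wild type replicate 2. Its log2 fold change was -0.45 ± 0.21 (SE; limma, adjusted p = 0.25). TPS6 has been tied to cell shape in leaves, and its interval of -0.94 to 0.04 includes no change.

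TPS1, the gene for the active synthase, had wild type levels of 1.26, 0.97, 1.17 and 0.97 and mutant levels of 0.75, 0.71, 0.97 and 0.40 on its bright probe. The mutant replicate 3 reached the lowest wild type arrays, and the log2 fold change was -0.38 ± 0.16 (SE; 95% interval -0.75 to -0.02; limma, adjusted p = 0.19). A dim TPS1 probe, with signals from 8.22 to 66.7 and well above background on 7 of 8 arrays, moved the opposite way. Its wild type levels of -6.10, -5.83, -6.46 and -6.49 lay below the mutant levels of -5.26, -5.35, -4.52 and -5.04, a difference of 1.18. Averaging both probes turned the TPS1 value to 0.40, so these arrays settle no direction for TPS1. The other class I genes, TPS2, TPS3 and TPS4, were well above background on 0, 0 and 1 arrays and were not tested.

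The members' own rule sets the starvation-induced genes against the sugar-induced gene. The mean level of TPS8 to TPS11 was 2.36, 2.14, 2.82 and 3.01 in wild type and 1.53, 1.19, 1.38 and 2.0 in voz1 voz2. Every mutant array was below every wild type array, with mutant replicate 4 nearest to wild type. This mean minus the TPS5 level was 1.57, 0.90, 2.07 and 2.88 in wild type and -0.76, -1.16, -1.30 and -0.47 in the mutant. Its sign has no meaning between probes, but its change between genotypes was -2.78 on the log2 scale, and -2.93 without mutant replicate 4 and -2.44 without wild type replicate 4. Since the choice of members fixes this direction, it is given with no test.

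Within genotypes some members varied together and others did not. After the genotype means were removed, the deviations of TPS9 and TPS11 over the 8 arrays correlated at 0.95 (Pearson), TPS7 and TPS9 at 0.91, and TPS9 and TPS10 at 0.86. TPS5 ran the other way to the starvation-induced genes, at -0.78 with TPS8, -0.63 with TPS11 and -0.61 with TPS9, and at -0.27 with TPS10. TPS1 had values of -0.66 with TPS8, -0.55 with TPS11, -0.35 with TPS9 and -0.23 with TPS7, and TPS6 and TPS8 were at 0.35. The 8 arrays share slides and scaling, so these values are descriptions. By their TPS11 deviations, wild type and mutant replicate 4 were the 2 arrays farthest from the median. Without them the correlation of TPS9 and TPS11 was 0.89, and that of TPS5 and TPS11 was -0.57. The same 2 arrays were farthest by their TPS9 deviations, and without them TPS5 and TPS9 were at -0.38.

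Among 81 genes of the lists used here, the closest matches of each member by the same deviations came from several lists, and some were shared. TPS11 was most like BZIP1 (r = 0.96), a transcription factor gene induced by starvation, and DIN3 (r = 0.95), a dark-induced subunit gene of branched-chain amino acid breakdown. TPS9 and TPS10 were most like KINB1 (r = 0.95 and 0.87), which encodes a beta subunit of SnRK1, and TPS8 was most like the phosphatase gene TPPA (r = 0.97) and the starvation-linked factor gene BZIP63 (r = 0.93). TPS7 was most like TPS9 and BZIP1 (r = 0.88). TPS5 was most like RHD6 (r = 0.99) and RSL4 (r = 0.96), regulators of root hair formation. TPS1 was most like SUS5 (r = 0.97) and SHR (r = 0.88), and TPS6 was most like SCR (r = 0.85) and UGP2 (r = 0.83). Each match was picked as the closest of 81 genes over 8 arrays, where high values can arise without a link. No link was tested.

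Root marker levels varied with TPS5 across the arrays. All 12 root markers were well above background on every array. Of them 10 of 12 had fold changes above 0, against 47.2% of all loci, and 1 of 12 passed as higher, against 2.72%. Their mean level was -0.74, -0.11, -0.46 and -2.08 in wild type and 0.0076, -0.042, 0.63 and -0.14 in voz1 voz2, so mutant replicate 4 lay just below wild type replicate 2 and the other mutant arrays lay above all of wild type. Leaf markers showed 0 of 10 past the threshold, against 4.44% of all loci. Of these 10 markers 2 had fold changes above 0, against 47.2% of all loci, and the list median was -0.35. The mean of the 6 leaf markers measured on all 8 arrays was 3.18 ± 0.25 in wild type and 3.01 ± 0.10 in the mutant (SD, n = 4 each). The deviations of TPS5 correlated with those of the root marker mean at 0.94 (Spearman 0.79; 0.72 without wild type replicates 2 and 4), and those of TPS8, TPS9 and TPS11 at -0.82, -0.59 and -0.65 (n = 8 arrays). Without the same pair of arrays the values were -0.75 for TPS8, 0.059 for TPS9 and -0.28 for TPS11. With the leaf marker mean, TPS5 deviations correlated at -0.91, and those of TPS8, TPS9 and TPS11 at 0.74, 0.45 and 0.49.

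A few arrays, picked by their values, had like root marker levels. Wild type replicate 2, with a root marker mean of -0.11, had a TPS5 level of 1.24, and the mutant replicates 4 and 2, at -0.14 and -0.042, had 2.47 and 2.35. With the root marker mean as a covariate, a fit added after the data were seen, TPS5 was 1.25 higher (95% interval 0.84 to 1.66; limma, adjusted p = 0.038), a fit that called 0.39% of loci higher and 0.154% lower. In it TPS11 was at -1.16 (95% interval -1.95 to -0.38; adjusted p = 0.25), TPS9 at -0.87 (adjusted p = 0.41) and TPS8 at -0.40 (adjusted p = 0.53). The root marker mean itself differed between the genotypes, so this fit cannot separate genotype from root share. No cause was tested.

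**Figure D3:**
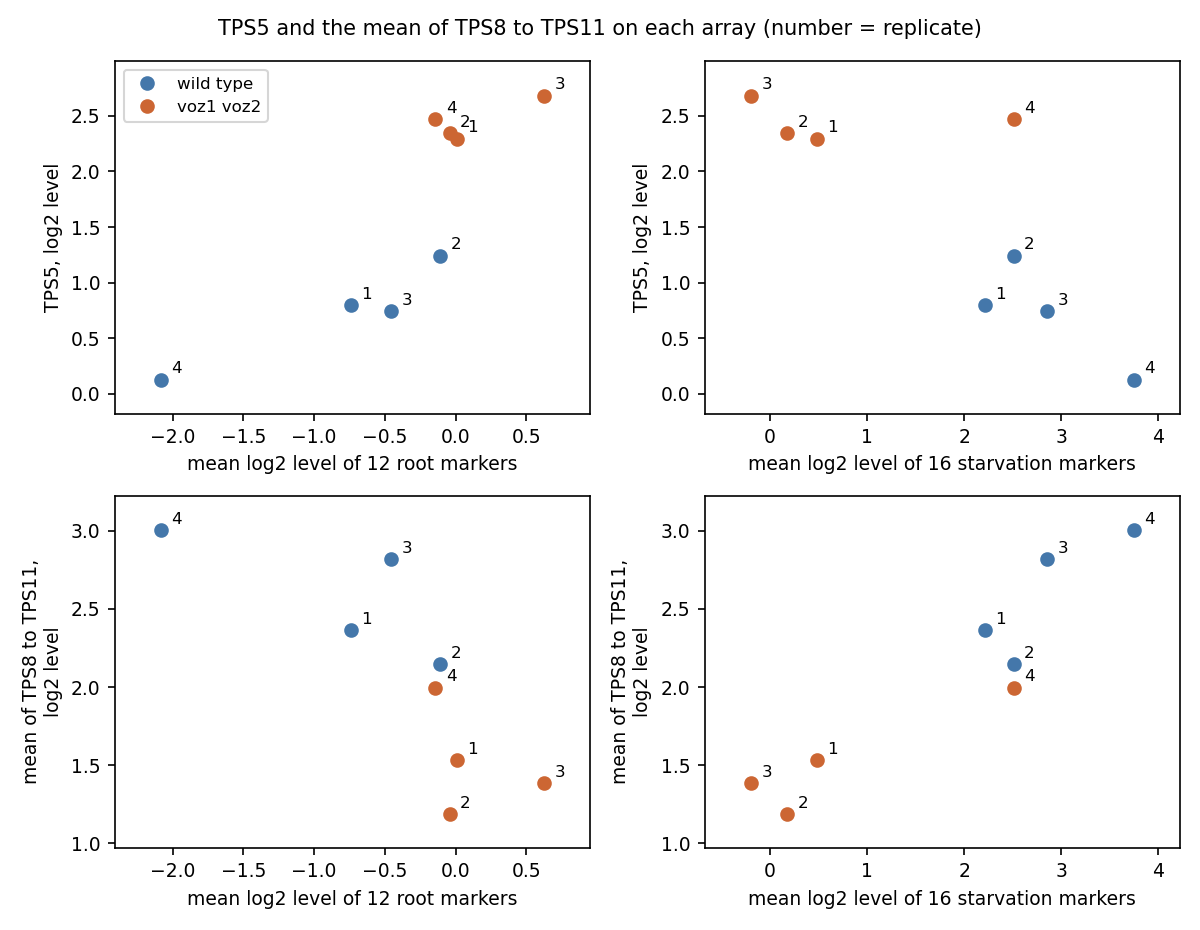
TPS5 level (top) and mean level of TPS8 to TPS11 (bottom) on each array against the mean level of 12 root markers (left) and of 16 carbon starvation markers (right), all as log2 signal relative to the array's 75th percentile; blue is wild type, orange voz1 voz2, and numbers are replicates. At a starvation marker mean of 2.51, wild type replicate 2 and mutant replicate 4 have TPS8 to TPS11 means of 2.14 and 2.0 and TPS5 levels of 1.24 and 2.47. These single arrays were picked by their values, and no cause was tested.

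Genes known to respond to carbon supply were listed beside the family. These and the other pathway lists were chosen with earlier results of these data known, so nothing is read from their shares. The starvation list held 17 other genes known to rise when carbon is short. Against 1.72% of all loci, 1 of 17 passed as lower, DRM2, a dormancy-associated gene. Its levels were 3.23, 1.51, 2.27 and 3.53 in wild type and -1.11, -1.21, -0.83 and 1.0 in the mutant, without overlap (log2 fold change -3.17 ± 0.60 SE; limma, adjusted p = 0.028). None of the 17 fold changes was above 0, and their median was -1.37 against -0.030 for all loci. In BCAT2, a branched-chain aminotransferase gene, 1 mutant array lay far from the others: the wild type levels were 1.2, 2.27, 3.23 and 3.73, and the mutant levels -2.21, -2.99, -2.70 and 1.83. BCAT2 (log2 fold change -4.12), SEN1 (-3.59) and DIN2 (-3.69) did not pass, at adjusted p of 0.066, 0.077 and 0.079. BCAT2 and SEN1 passed in the replicate block fit (0.031 and 0.034) and with the slide as a block (0.042 and 0.038).

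The count of lower starvation markers depended on that array and on the block used in the fit. It was 7 of 17 without mutant replicate 4, where 1.11% of all loci were called lower. It was 13 of 17 in the replicate block fit and 4 of 17 with the slide as a block, against 6.74% and 7.95% of all loci. Dropping wild type replicate 2 gave 2, and dropping any of the other 6 arrays gave 0. Mutant replicate 4 and wild type replicate 2 had the same starvation marker mean, 2.51, and near values for TPS8 to TPS11, 2.0 and 2.14. Their TPS5 levels were 2.47 and 1.24. This pair of single arrays was picked by its values, and the cause of the pattern was not tested. Deviations of the starvation marker mean correlated with those of TPS11 at 0.89, TPS8 at 0.84, TPS9 at 0.76, TPS7 at 0.61, TPS10 at 0.57 and TPS6 at 0.18. The values for TPS1 and TPS5 were -0.85 and -0.42 (n = 8 arrays). Replicate 4 was the highest array of each genotype in the starvation marker mean, and these correlations were not computed without it.

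The sugar-induced list, TPS5 aside, held 8 genes, all with fold changes above 0, against 47.2% of all loci. Of them 5 of 8 passed as higher, against 2.72% of all loci, and the list median was 1.66. As the list was chosen with earlier results known, these shares are a description only. The count of higher calls was 2 with no filter on dim probes and 1 with normexp background correction. It was 0 with the deposited values, within either slide and with the root marker covariate. DFR, an enzyme gene of anthocyanin synthesis, had levels of 0.70, -0.062, -0.61 and -0.86 in wild type and 1.69, 2.60, 2.71 and 2.90 in the mutant, without overlap (log2 fold change 2.68 ± 0.39 SE; limma, adjusted p = 0.010). APL3, a subunit gene of the starch enzyme ADP-glucose pyrophosphorylase, was higher by 1.25 (adjusted p = 0.025), CHS, the entry enzyme of flavonoid synthesis, by 0.83 (0.026), and PAP1, the MYB regulator of anthocyanin genes, by 2.40 (0.026). GPT2, a plastid glucose 6-phosphate transporter gene named after its value was seen, was higher by 2.85 (0.030). In mutant replicate 4, where the mean of the starvation markers lay in the wild type range although DRM2, DIN2 and KFB20 (named after its value was seen) were below it, the mean of the sugar-induced list was 1.35, against 0.73 to 0.91 in the other mutant arrays and -1.18 to -0.17 in wild type. Dropping single arrays left 5 calls (wild type replicate 2), 3 (wild type replicate 3), 2 (wild type replicate 1, mutant replicate 2) or 1 (wild type replicate 4, any other mutant array).

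**Figure D4:**
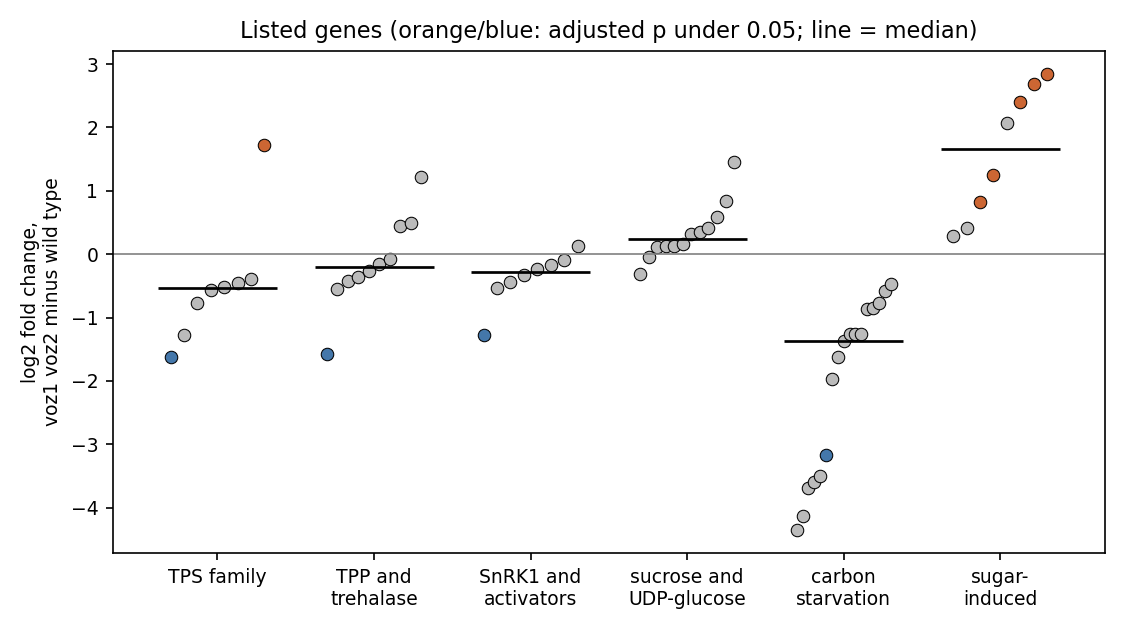
Log2 fold change, voz1 voz2 minus wild type, of the 8 TPS genes and of each tested gene on 5 lists of linked genes; orange and blue mark genes higher and lower with a limma adjusted p under 0.05, grey those that did not pass, and lines are medians. All 17 starvation markers lie below 0 and all 8 sugar-induced markers above it, and each of the TPS, phosphatase and SnRK1 groups has 1 lower call.

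Downstream of the synthase, 10 of the 11 phosphatase and trehalase genes could be tested, since TPPC was well above background on no array. Past the threshold 0 of 10 were higher and 1 of 10 lower, against 2.72% and 1.72% of all loci, with a list median of -0.21. The lower one was TRE1, the trehalase gene, at -0.0010, 0.20, 0.56 and 0.91 in wild type and -1.40, -1.54, -1.35 and -0.31 in the mutant. Its arrays did not overlap, and the log2 fold change was -1.57 ± 0.31 (SE; limma, adjusted p = 0.033). As for TPS11, replicate 4 was the highest mutant array, and the TRE1 call held only when the array dropped was wild type replicate 2 or mutant replicate 4.

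TPPE had the opposite sign, with levels of -0.63, -0.64, -1.04 and -1.80 in wild type and 0.33, 0.25, 0.36 and -0.20 in the mutant. All mutant arrays were higher, and the log2 fold change of 1.21 ± 0.28 (SE; limma, adjusted p = 0.051) just missed, but passed in the replicate block fit (adjusted p = 0.021) and with the slide as a block (0.029). TPPD was at -0.55 (limma, adjusted p = 0.098) and TPPG at -0.42 (0.27). With the slide as a block TPPD passed (limma, adjusted p = 0.037), and the list had 2 lower calls, against 7.95% of all loci. On the supply side, 0 of 12 genes for sucrose phosphate synthases, sucrose synthases and UDP-glucose pyrophosphorylases passed in either direction. Of all loci, 2.72% were called higher and 1.72% lower. Nearest to passing on this list were UGP1 at 0.59 (limma, adjusted p = 0.11) and SUS6 at 0.84 (0.13). SUS4 was at 1.45 (0.24) and SUS1 at 0.42 (0.28). With the slide as a block UGP1 passed (limma, adjusted p = 0.048), 1 higher call on the list against 8.13% of all loci.

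Of the 8 genes for SnRK1 subunits and the kinases that activate SnRK1, 1 passed as lower and 0 as higher. The list median was -0.28, and of all loci 1.72% were called lower and 2.72% higher. KINB1 had levels of 1.65, 1.08, 1.88 and 2.25 in wild type and 0.39, 0.010, 0.38 and 0.95 in the mutant. These did not overlap, and the log2 fold change was -1.28 ± 0.29 (SE; limma, adjusted p = 0.046), a call that likewise held on dropping wild type replicate 2 or mutant replicate 4 and on no other single array. SNF4, the gamma-type subunit gene, was at -0.54 (limma, adjusted p = 0.16). The catalytic subunit gene KIN11 was at -0.44 (0.25) and the activating kinase gene GRIK1 at -0.32 (0.25). With the slide as a block SNF4 passed (limma, adjusted p = 0.034), and the list had 2 lower calls, against 7.95% of all loci.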

How the data were processed

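Cy3-labelled RNA of 8 samples was hybridised to 1-colour Agilent arrays, 1 array a sample, and the deposited intensity values were made with Agilent Feature Extraction 9.1.3.1, per the submitters' processing notes. The processed signal was already background-subtracted, per the file headers. Values in the series table, as deposited, matched the natural log of that signal less 1 constant for each genotype (6.42 and 6.91), with no scaling of each array, and served as an alternative.

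Control and outlier spots were left out, signals were turned to log2 less each array's 75th percentile, and loci well above background on at least 4 of 8 arrays were kept, with the brightest probe per locus. Genotypes were compared with limma 3.58.1 (lmFit, eBayes) in R 4.3.3 and Benjamini-Hochberg adjustment over 24599 loci at 0.05. The fit was tested on simulated data. Normexp (offset 50) used median spot signals, since the files hold no mean signal. Arrays of a genotype correlated at 0.96 to 0.99 and none was a duplicate. The labels do not say that replicates were separate cultures, so p-values rest on the spread among these arrays, which may be technical. The main fit used no block and did not pair samples. Replicate numbers served as a block in an alternative fit, because deviations of all 4 same-numbered pairs correlated (0.32 to 0.61). Different numbers on 1 slide did so too (0.27 to 0.54), so a pairing beyond the slide is not established.

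Members and lists were chosen with earlier results of these data known. Named were all members, VOZ1 and VOZ2, up to 4 genes of smallest p per pathway list, and each member's 2 most alike genes. No sequences of probes, proteins or promoters were used here, so cross-hybridisation between related TPS genes was not tested.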

Additional observations from a re-analysis of the deposited data

Results flagged for a closer look

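In 68 groups of 4 arrays (members, list genes named here and marker means, by genotype), 5 had an array far from the other 3 by Dixon's criterion, which chance meets in about 1 of 20 groups. TPS11 was at 2.30 in voz1 voz2 replicate 4, against 1.35 to 1.51 in the other mutant arrays. On the same array the trehalase gene TRE1 was at -0.31 and the starvation marker BCAT2 at 1.83, both above the rest of the mutant arrays. PAP1 was at 0.68 in voz1 voz2 replicate 2, below the others. The leaf marker mean was 3.56 in wild type replicate 4, above the others. No cause was tested.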

How the results depend on the processing

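TPS5 remained higher and TPS11 lower in direction under every alternative tried, with TPS5 between 1.25 and 1.89 on the log2 scale and TPS11 between -1.95 and -1.16. TPS5 lost its call with the deposited values (adjusted p = 0.36) and within either slide. TPS11 also lost its call with normexp (0.066), with no filter (0.056), with the deposited values (0.15), within either slide and with the root marker covariate. The KINB1, TRE1 and DRM2 calls were lost with normexp (adjusted p = 0.12, 0.094 and 0.075), no filter (0.087, 0.065 and 0.052), the deposited values (0.20, 0.20 and 0.080), either slide alone and the covariate, and that of KINB1 with median scaling too (0.063). The TPS1 value turned to 0.40 when its probes were averaged. The median of all loci moved from -0.030 to -0.15 with median scaling and to -0.37 with the deposited values.

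Lower members numbered 1, but 2 with quantile normalization or with a trended and robust variance, 3 with the slide as a block, 4 with the replicate block, and 0 with normexp, the deposited values, no filter, either slide alone or the covariate, and 0 to 2 leaving out 1 array. Higher members numbered 1, but 0 with the deposited values and within either slide. Loci called higher, 668, became 402 with median scaling, and 261 to 891 leaving out 1 array; loci called lower, 423, became 115 to 615. Higher and lower calls were 75 and 19 with normexp, 30 and 40 with the deposited values, 325 and 189 with no filter, 1999 and 1956 with the slide as a block, 1657 each with the replicate block, and 96 and 38 with the covariate. Within a slide limma called 0 in each direction, with 2473 higher and 2013 lower loci at an unadjusted p under 0.05 on slide 1, and 1980 and 2051 on slide 2. The replicate block changed the member calls of TPS8, TPS9 and TPS10, as given above. The mean of TPS8 to TPS11 less TPS5 changed by -3.10 to -2.44 between genotypes under the other alternatives and by -1.97 with the covariate. The causes were not tested.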
